A study of Sus scrofa with 6 samples.

Results

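The genes described here encode 4 molecules that a vessel wall or tissue displays to catch passing leukocytes: ICAM1, VCAM1, P-selectin (SELP) and E-selectin (SELE). They were taken as every probe set, controls left out, to which the array's annotation gives 1 gene symbol and that symbol is ICAM1, VCAM1, SELP or SELE. This found 4 of 6765 named genes, each with 1 of the 23999 probe sets, and 3 of the 4 passed the filter on dim probe sets. The samples were aortic valve leaflets cut from adult female pigs, with the endothelium taken off by collagenase II and an overnight culture before loading. The hypertensive group (3 samples) was held under cyclic pressure of 0 to 120 mmHg and the normotensive group (3 samples) under 0 to 80 mmHg, both for 24 h at 1 Hz in a bioreactor with serum-containing medium. All 6 samples therefore shared the stripping, the culture and the cyclic loading, and no unloaded or freshly excised leaflet was among them. The labels call the samples biological replicates but do not say if each had its own donor pig, so every p-value reflects the spread among these samples alone. RNA was read on the Affymetrix Porcine Genome Array after amplification, as 1 MAS5 signal per probe set and array.

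Leukocytes leave the blood in steps. Selectins are lectins that hold the cell loosely while it rolls: P-selectin is stored in endothelial granules and in platelets and can reach the surface at once, whereas E-selectin is made anew after cytokine stimulation. Firm arrest follows when leukocyte integrins bind ICAM1 and VCAM1, immunoglobulin-type molecules whose genes respond to NF-kB, and which fibroblast-like cells such as valve interstitial cells can also make, while the selectins are regarded as products of endothelium and platelets. The comparison asks how the leaflet's transcripts for these molecules differ between raised and normal diastolic pressure after removal of the endothelium.

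The 2% trimmed mean of the signals lay between 500.110 and 500.131 on the 6 arrays, so every array had been scaled to one level. Across the kept probe sets hypertensive replicate 2 resembled the normotensive arrays most (mean r = 0.950), against 0.895 for hypertensive replicate 3 and 0.817 for replicate 1. The 3′ to 5′ ratio of the EF1A control probe sets was 1.35 to 1.55 on the hypertensive arrays and 1.30 to 1.65 on the normotensive arrays. That of GAPDH was 2.91 to 6.04 on the hypertensive arrays and 2.11 to 7.52 on the normotensive arrays. Further control probe sets gave larger ratios on both groups: 6.02 to 19.4 against 4.56 to 24.8, and 18.1 to 29.8 against 17.6 to 37.4, for GAPDH, and 52.5 to 81.7 against 41.1 to 109 for actin, with overlapping groups in each. All samples had been amplified, and the part of RNA integrity in these ratios was not tested. Of the endothelial markers on the array, 6 of 14 passed the filter. The brightest were ERG (899 to 1780 over the 6 arrays) and PECAM1 (409 to 1396). The 8 that did not pass were von Willebrand factor (VWF), the VEGF receptors KDR and FLT1, TIE1, claudin-5, LYVE1, NOS3 and CDH5. Of valve interstitial cell markers 10 of 11 passed, with vimentin at a geometric mean of 21493 under hypertensive and 23586 under normotensive pressure. All 10 had lower means under hypertensive pressure (52.7% of all kept probe sets did), with a median log2 difference of -0.63. Of the 10, 2 were lower without overlap (12% of all kept probe sets were) and 0 passed the adjusted threshold. The summed signal of the 11 was 55345 to 70319 on the hypertensive arrays and 80652 to 86063 on the normotensive arrays. The part of these cells' number or RNA in the ICAM1 and VCAM1 signals was not tested.

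All 4 adhesion molecules had higher signals on every hypertensive array than on any normotensive array. By size they differed widely: about 7 times for SELP, 4 times for ICAM1 and 1.4 times for VCAM1, while SELE passed the filter signal on 2 of 3 hypertensive arrays and lay near the bottom of the scale on the normotensive arrays. None of the 3 tested genes passed an adjusted p of 0.05 over 14399 probe sets with limma (0 of 3, where 0% of all probe sets passed), and all 3 had an unadjusted p under 0.05. All 3 passed in a pair of alternative fits: without hypertensive replicate 2, where 10.3% of probe sets were called higher, and with array weights, where 16.9% were (adjusted p between 0.00114 and 0.00582 with weights). Without hypertensive replicate 2 the unadjusted p was larger than with all arrays for ICAM1 and SELP, and smaller for VCAM1. Groups that did not overlap and were higher under hypertensive pressure were found in 10.4% of the kept probe sets, and an unadjusted p under 0.05 with higher signal in 7.39%. The median log2 difference over all kept probe sets was -0.04.

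**Figure D1:**
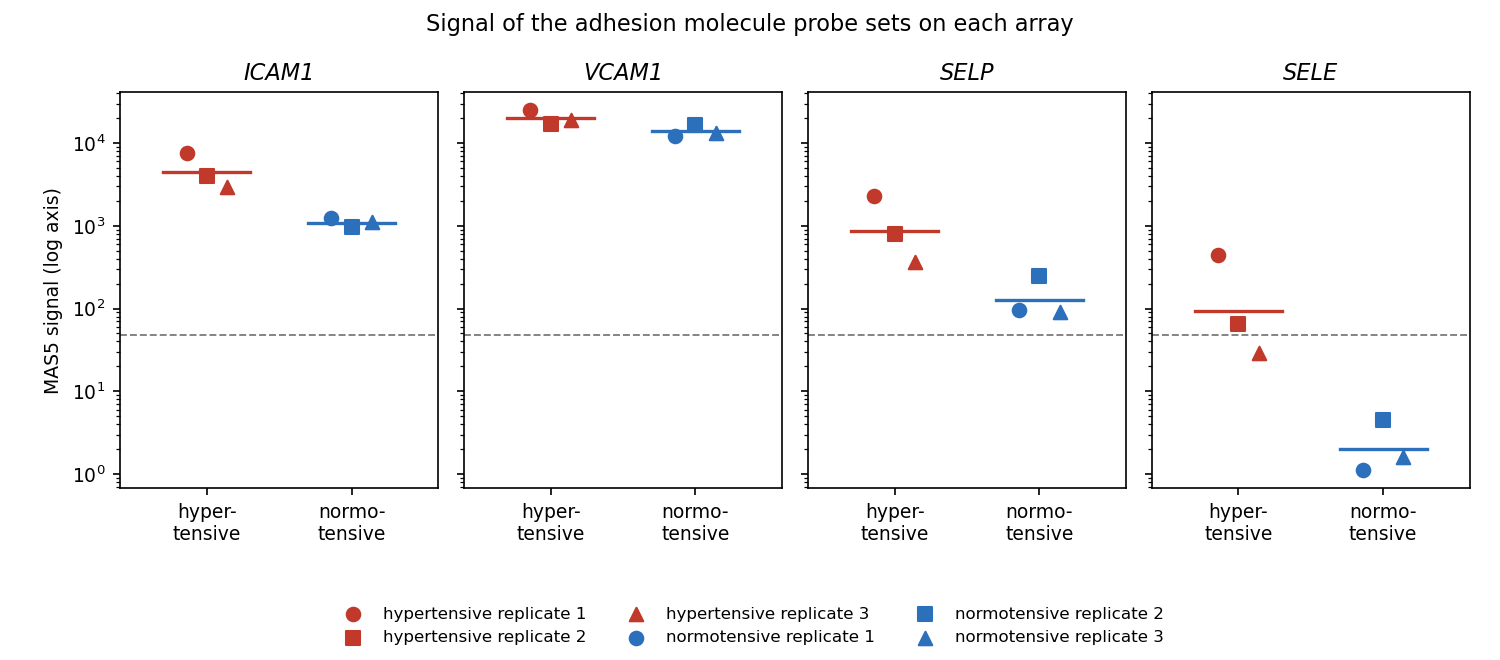
MAS5 signal on a log axis for ICAM1, VCAM1, SELP and SELE, 1 point per array (red, hypertensive; blue, normotensive; symbol, replicate), with a bar at each group's geometric mean and a dashed line at the filter signal of 48.5. Hypertensive replicate 1 is highest in all 4 panels, the VCAM1 groups nearly touch, and SELE is below the line on all 3 normotensive arrays and on hypertensive replicate 3.

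ICAM1, the ligand that stops leukocytes carrying beta-2 integrins, had signals of 7568, 3974 and 2931 on hypertensive replicates 1, 2 and 3, against 1226, 968 and 1105 on normotensive replicates 1, 2 and 3. The normotensive arrays lay close together, the hypertensive arrays were spread 2.58-fold from lowest to highest, and even the lowest hypertensive array was 2.39 times the highest normotensive one. The log2 difference was 2.02 (SE 0.35, n = 3 each), which is 4.07 times the normotensive signal with a 95% interval of 2.32 to 7.14 (limma, adjusted p = 0.164). By p it was number 34 of the 14399 probe sets tested, and 0.854% of them had a log2 difference at least as large. Its direction and size held without any 1 array, between 3.12 times (hypertensive replicate 1 left out) and 5.01 times (hypertensive replicate 3 left out). Without hypertensive replicate 2 the adjusted p was 0.00951, in a fit where 3505 probe sets passed the threshold. The unadjusted p was larger in that fit, at 0.0006029 against 0.0004035 with all arrays (limma). Over all fits with 1 array left out the adjusted p ran up to 0.588.

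VCAM1, which binds the alpha-4 integrins of monocytes and lymphocytes, had signals of 24766, 16761 and 18732 on the hypertensive arrays, against 12182, 16419 and 13196 on the normotensive arrays, in replicate order. The groups were separated by the narrowest of margins, since hypertensive replicate 2 was 1.02 times normotensive replicate 2. The log2 difference was 0.52 (SE 0.19), or 1.43 times with a 95% interval of 1.06 to 1.93 (limma, adjusted p = 0.269), and 17.7% of kept probe sets had a log2 difference at least as large. With quantile normalization it was 0.39 (adjusted p = 0.323), and with 1 array left out 0.36 to 0.64 (adjusted p from 0.0390 to 0.588). VCAM1 already gave one of the brightest signals on the array under normotensive pressure, where 141, 45 and 110 of the other probe sets were brighter on replicates 1, 2 and 3. On the hypertensive arrays 14, 92 and 12 were brighter. The part that this position near the top of the scale had in its small fold was not tested.

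SELP, the gene of the selectin that tethers neutrophils and monocytes, had signals of 2296, 784 and 368 on the hypertensive arrays, against 95.4, 245 and 90.6 on the normotensive arrays, in replicate order. Both groups were uneven: the hypertensive signals ran over 6.24-fold and the normotensive ones over 2.71-fold, with normotensive replicate 2 well above the other two, and the lowest hypertensive array was 1.50 times the highest normotensive one. The log2 difference was 2.76 (SE 0.67), or 6.79 times with a 95% interval of 2.33 to 19.8 (limma, adjusted p = 0.235). It was among the largest differences on the array, with 0.306% of probe sets at or above it, but its size depended on single arrays. It was 4.19 times without hypertensive replicate 1, 10.5 times without hypertensive replicate 3 and 9.38 times without normotensive replicate 2 (adjusted p between 0.265 and 0.443 in these fits). Without hypertensive replicate 2 it was 7.16 times, with an adjusted p of 0.0324. The unadjusted p was larger in that fit, at 0.0059 against 0.003214 with all arrays (limma). The highest adjusted p with 1 array left out was 0.588.

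SELE, the selectin gene made on demand by activated endothelium, had signals of 443, 64.6 and 29.3 on the hypertensive arrays and 1.11, 4.50 and 1.62 on the normotensive arrays, in replicate order. Under normotensive pressure it was dimmer than the filter signal of 48.5 on all 3 arrays, with only 1.14% to 8.76% of probe sets below it. Under hypertensive pressure 74.7% of probe sets were below it on replicate 1, 42.6% on replicate 2 and 30.6% on replicate 3. A ratio of such dim signals has no firm size, so the fold is given against the filter signal, as at least 1.95-fold higher under hypertensive pressure. That bound was 3.49-fold without hypertensive replicate 3, and without hypertensive replicate 1 there was none, since the mean of the remaining arrays was under the filter signal. SELE was tested only in a fit without the filter, where limma gave an adjusted p of 0.218 over 23999 probe sets, and where 9.49% of probe sets had higher, non-overlapping hypertensive signals. With 64 added to every signal in that fit its log2 difference was 1.46 (adjusted p = 0.341).

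**Figure D2:**
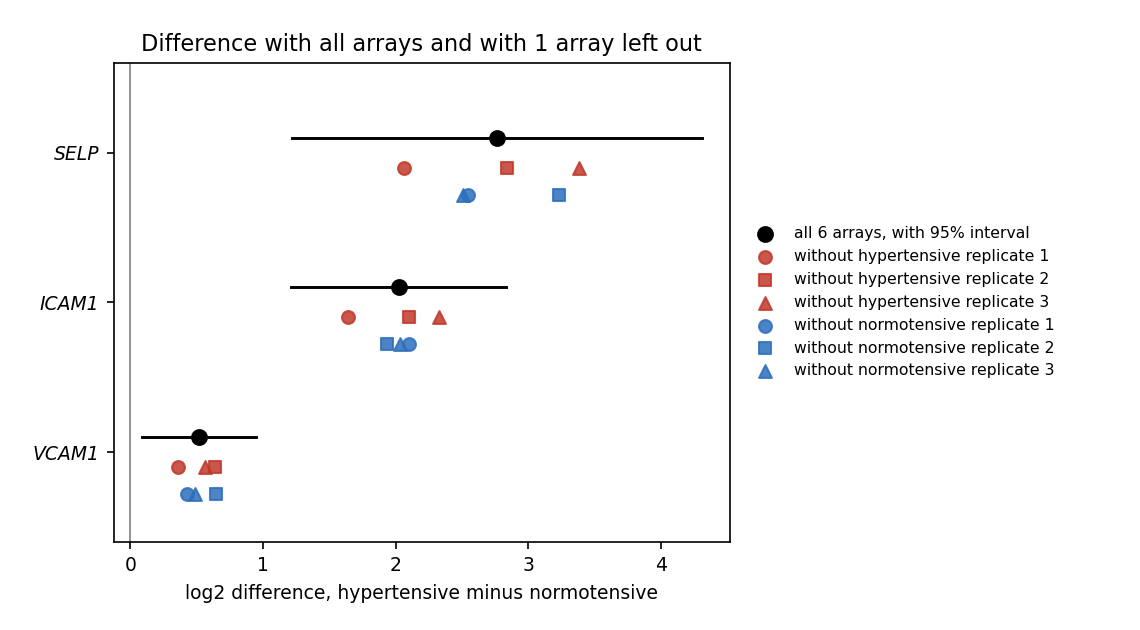
Log2 difference, hypertensive minus normotensive, for SELP, ICAM1 and VCAM1: the black point and line are the limma estimate and its 95% interval with all 6 arrays, and the coloured symbols below are the estimates with 1 array left out (red, a hypertensive array; blue, a normotensive array). SELP moves most, between 2.07 and 3.39, and no left-out array turns a difference to the other side of 0.

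The members did not share one order of arrays. Hypertensive replicate 1 was the highest array for 4 of 4 genes, and it was the highest hypertensive array in 72.6% of the 1501 kept probe sets with higher, non-overlapping signals. Hypertensive replicate 2 was above replicate 3 for ICAM1, SELP and SELE (3 of 4), an order seen in 32.7% of those 1501, while VCAM1 had replicate 3 above replicate 2. On the normotensive side, replicate 2 was the highest for VCAM1, SELP and SELE and the lowest for ICAM1.

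Whether members moved by unequal amounts was tested on the difference of their log2 signals within each array, with an exact 2-sided permutation test over the 20 splits of 6 arrays, which cannot give a p under 0.1. ICAM1 moved by 1.50 more than VCAM1 on the log2 scale, with no overlap between the groups (exact p = 0.1, adjusted p = 0.15 over 3 pairs). The change in VCAM1 minus that in SELP was -2.24 (exact p = 0.1, adjusted p = 0.15). That of ICAM1 minus SELP was -0.74, with groups that overlapped (exact p = 0.3, adjusted p = 0.3). SELE was left out of these pairs, as its normotensive signals are only bounded.

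Genes whose log2 signals followed each kept member most closely over the 6 arrays were taken from 5271 genes, 5 per member, by Pearson r. The 6 points share the group difference and the scaling, and the values describe these arrays only. For ICAM1 they were the ubiquitin ligase gene MARCH3 (r = 0.997), SEC14L2 (0.991), the NF-kB inhibitor NFKBIA (0.989), the cholesterol exporter ABCA1 (0.987) and the cytokine receptor IL27RA (0.987). NFKBIA had signals of 17111, 8643 and 8687 on the hypertensive arrays against 2531, 2265 and 2395 on the normotensive arrays, so its groups were likewise well apart. For VCAM1 they were MLF1 (r = 0.996), the nucleic acid sensor ZBP1 (0.992), the TEK ligand angiopoietin-1 (ANGPT1, 0.988), PYGO2 (0.986) and SPINK4 (0.985). The groups of ANGPT1, unlike those of VCAM1, overlapped, as it was at 529 on hypertensive replicate 2, below the 535 of normotensive replicate 2. For SELP they were the laminin chain gene LAMB1 (r = 0.998), RFTN1 (0.990), the transcription factor CEBPB (0.990), LOC100125545 (0.985) and the monocyte chemokine CCL2 (0.985). CCL2 was at 32267, 16017 and 9601 on the hypertensive arrays and 2560, 6698 and 1782 on the normotensive arrays, so it shared with SELP the high normotensive replicate 2. LAMB1 followed SELP in order but over a far smaller span, from 7014 on hypertensive replicate 1 to 4446 on normotensive replicate 3.

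**Figure D3:**
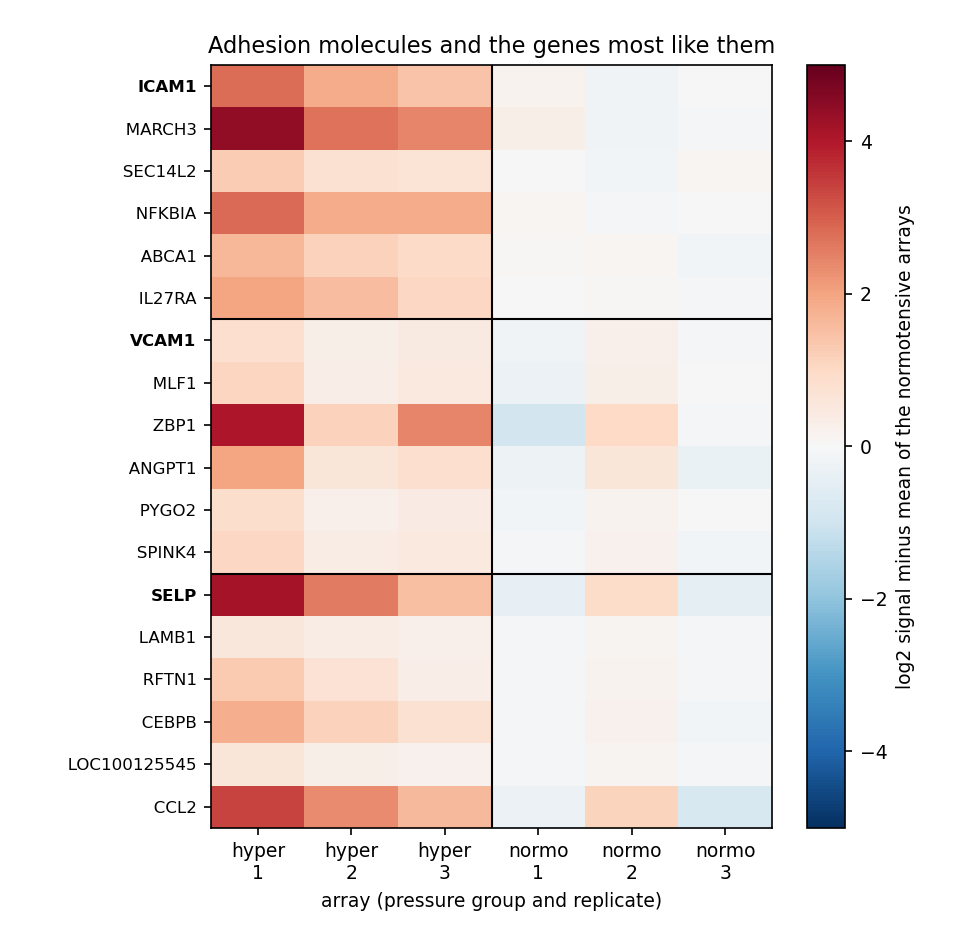
Log2 signal minus the mean of the normotensive arrays (colour) for ICAM1, VCAM1 and SELP (bold) and the 5 genes most correlated with each, with hypertensive arrays left of the line and normotensive arrays right of it. ICAM1 and its 5 genes are nearly flat over the normotensive arrays, whereas SELP and CCL2 are raised on normotensive replicate 2.

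Of the cytokines that switch adhesion molecule genes on, with their receptors, 12 of 18 on the array passed the filter and 0 of the 12 passed the adjusted threshold. Higher means under hypertensive pressure were found in 11 of the 12, where 47.3% of all kept probe sets had them. In 8 of the 12 they were without overlap, where 10.4% of all kept probe sets were. The median log2 difference was 0.82, against -0.04 over all kept probe sets. IL1B, which with IL1A is a classical inducer of E-selectin and ICAM1, had signals of 8695, 524 and 612 on the hypertensive arrays and 174, 247 and 137 on the normotensive arrays. IL1A was at 2831, 226 and 450 against 100, 132 and 120. Both were dominated by hypertensive replicate 1 and were lower on replicate 2 than on replicate 3, whereas ICAM1, SELP and SELE were higher on replicate 2. TNFRSF1A, the main receptor for TNF, had a more even gap, at 6186, 3757 and 4819 against 2339, 1836 and 2168 (log2 1.20, SE 0.25, adjusted p = 0.199). TNF itself did not pass the filter, and its signals of 246, 12.0 and 50.2 under hypertensive pressure overlapped the 22.4, 55.2 and 39.9 under normotensive pressure. IL6, an acute-phase cytokine, was at 22566, 297 and 2104 on the hypertensive arrays and 81.5, 101 and 29.0 on the normotensive arrays (log2 5.28, SE 1.34, adjusted p = 0.235). Its last normotensive signal lay under the filter signal, so its fold has no firm size, and it was 38.9 with all arrays, 12.7 without hypertensive replicate 1 and 111 without hypertensive replicate 2 (adjusted p = 0.00466).

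Of the NF-kB and IRF regulators of these genes, 9 of 12 on the array passed the filter, and 8 had higher means (47.3% of all kept probe sets), 7 of them without overlap (10.4% of all kept probe sets). None passed the threshold (0 of 9). The median log2 difference was 0.79, and 0.47 without hypertensive replicate 1. IRF1, which acts on the ICAM1 and VCAM1 promoters in human cells, was at 5788, 602 and 1305 on the hypertensive arrays and 287, 284 and 220 on the normotensive arrays. TNIP1, a brake on NF-kB, had a log2 difference of 1.75 (SE 0.48, adjusted p = 0.239) and NFKBIA one of 2.18 (SE 0.28, adjusted p = 0.115). KLF4, which represses VCAM1 induction in human endothelial cells, was also higher, at 2.02 times (adjusted p = 0.269). The gene with lower signal was GATA6, a regulator of VCAM1 transcription in human endothelial cells, at 483, 587 and 529 against 717, 1178 and 918, which was chosen after its values were seen.

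Further adhesion molecules of leukocyte traffic were split between the directions. Of these, 8 of 12 passed the filter, with 4 higher and 4 lower means and a median log2 difference of 0.04, which was -0.12 without normotensive replicate 3. Groups were free of overlap in 1 higher and 1 lower gene of the 8, a share near that over all kept probe sets, of which 10.4% were higher and 12% lower without overlap. CD47, a surface partner of integrins, was at 13072, 7111 and 6020 under hypertensive pressure and 4870, 5105 and 5151 under normotensive pressure (log2 0.71, SE 0.28, adjusted p = 0.282). ALCAM, an immunoglobulin-type molecule that binds CD6 on T cells, was on the lower side, at 2383, 4556 and 3545 against 5958, 8821 and 6511 (log2 -1.05, SE 0.28, adjusted p = 0.238). The difference between these genes and the members was not tested.

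Few counter-receptor genes were on the array. Of the leukocyte integrins that bind ICAM1 and VCAM1, 4 were on the array and ITGB1 and ITGB2 passed the filter. ITGB2, the beta chain of the ICAM1 receptors, was at 60.0, 231 and 195 under hypertensive pressure and 198, 197 and 103 under normotensive pressure, overlapping. ITGB1, the widely expressed beta chain of the VCAM1 receptor, had a log2 difference of 0.06 (SE 0.14). Of 17 selectin ligands and their building enzymes 3 were on the array, CD34, ST3GAL4 and B4GALT1, all with overlapping groups.

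The genes of the actin linkage that anchors ICAM1 and VCAM1 had a median log2 difference of -0.28, against -0.04 over all kept probe sets. With 1 array left out that median was -0.44 to -0.17. Their summed signal was 26098 to 31844 on the hypertensive arrays and 35477 to 38020 on the normotensive arrays. All 12 on the array passed the filter and 8 had lower means, where 52.7% of all kept probe sets had them. The groups overlapped in 9, and the other 3 were lower, where 12% of kept probe sets were lower without overlap. These were radixin (RDX), a linker of the ezrin family, at 513, 1036 and 818 under hypertensive pressure and 1583, 2025 and 1955 under normotensive pressure (log2 -1.28, SE 0.32, adjusted p = 0.235), RHOA at -0.72 (SE 0.25) and vinculin (VCL) at -0.70 (SE 0.32). Ezrin (EZR) and moesin (MSN), the other members of radixin's family, had log2 differences of -0.19 and 0.19 with overlapping groups. The list of proteases that cut adhesion molecules from the surface also held TIMP3, which is an inhibitor. ADAM17, which sheds VCAM1, was at 1194, 740 and 747 against 480, 625 and 514 (log2 0.70, SE 0.30, adjusted p = 0.291), and its inhibitor TIMP3 was at 116, 181 and 70.4 against 318, 283 and 225 (log2 -1.26, SE 0.39, adjusted p = 0.257). Of the 6 genes kept in that list 3 were higher without overlap (ADAM17, MMP2 and MMP14) and 1 was lower (TIMP3). Over all kept probe sets 10.4% were higher and 12% lower without overlap. MMP2 and MMP14 had log2 differences of 0.56 (SE 0.21) and 0.66 (SE 0.30). The other kept proteases had overlapping groups.

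**Figure D4:**
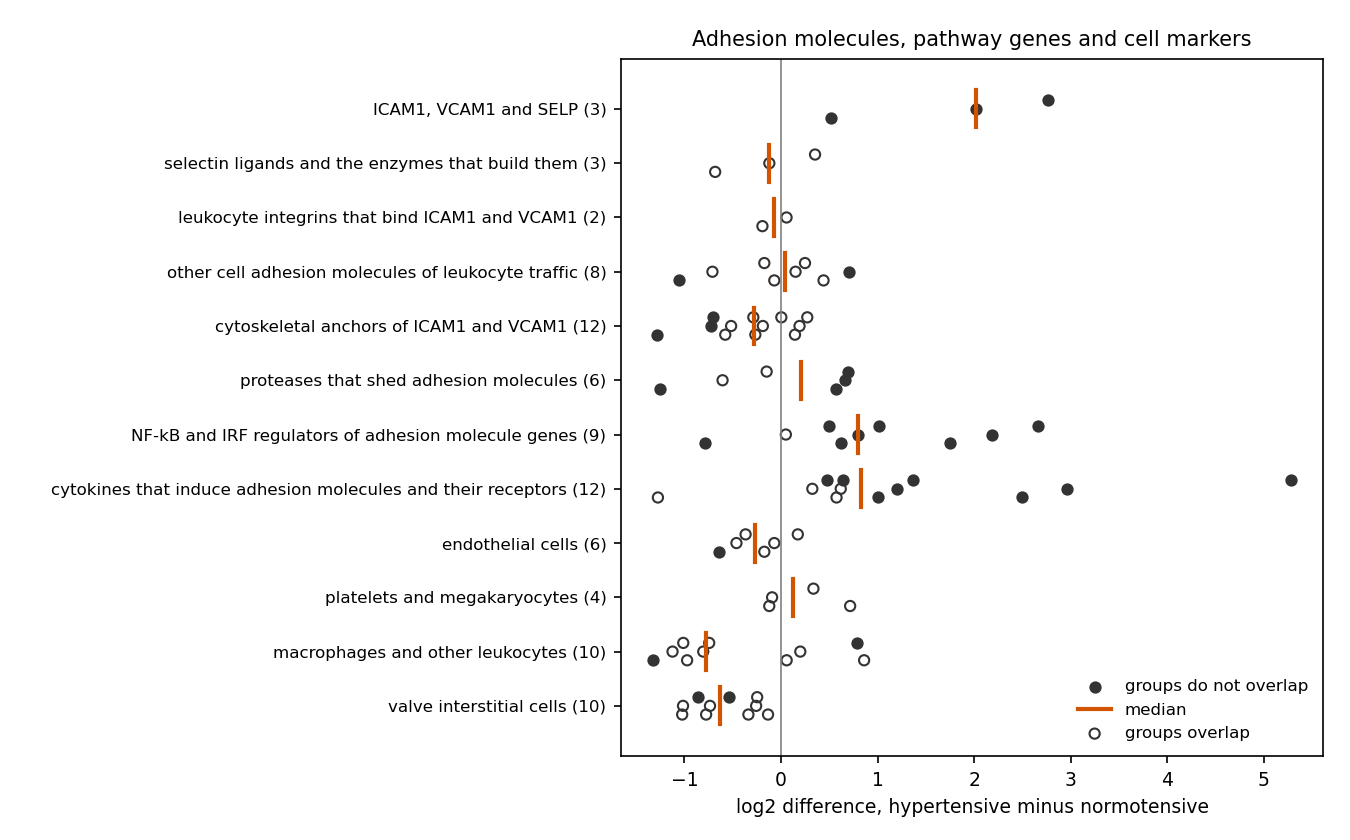
Log2 difference, hypertensive minus normotensive, for 1 probe set per gene in each list (number of kept genes in brackets), with filled points where the groups do not overlap, open points where they do, and an orange bar at the median. ICAM1, VCAM1 and SELP and the medians of both lists of their regulators lie to the right of 0, with GATA6 and IL13RA1 of those lists to the left, and the lists of endothelial, leukocyte and valve interstitial cell markers have medians below 0 among kept genes; without the filter the first 2 of these medians are 0.05 and 0.06.

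In these bulk samples fewer cells of a type and less RNA per cell cannot be told apart, so the markers of cells that carry selectins were set beside the members. Endothelial markers did not have higher signals as a list: 1 of 6 kept genes had a higher mean (median log2 difference -0.27, 0.05 without the filter and -0.05 without hypertensive replicate 1), and the summed signal of all 14 on the array was 1994 to 2636 on the hypertensive arrays and 2753 to 3226 on the normotensive arrays. PECAM1 was at 425, 915 and 447 under hypertensive pressure and 436, 1396 and 409 under normotensive pressure, highest on replicate 2 of each group. SELP was likewise highest on replicate 2 among the normotensive arrays, but not among the hypertensive ones. CDH5 (VE-cadherin), which did not pass the filter, was at 68.4, 115 and 84.9 against 30.3, 12.3 and 40.5, without overlap. ERG was lower without overlap, at 899, 1019 and 973 against 1675, 1142 and 1780. It was on average the brightest of the 14 and a large part of the summed signal, and no sum without it was taken. The part of endothelial cells in the SELP and SELE signals was not tested.

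Platelets are the other source of P-selectin, and 4 of their marker genes were on the array, all kept and all with overlapping groups. Their summed signal was 1023 to 1922 on the hypertensive arrays against 991 to 1307 on the normotensive arrays. The integrin chain gene ITGB3, at 971, 1338 and 683 against 736, 802 and 748, was the brightest of the 4 and a large part of that sum. No sum without ITGB3 was taken. The platelet chemokine PPBP was at 115, 412 and 120 under hypertensive pressure and 71.8, 288 and 61.8 under normotensive pressure, again highest on replicate 2 of each group. Among macrophage and other leukocyte markers 4 of 10 kept genes had higher means, with a median log2 difference of -0.77. That median was 0.06 without the filter, -0.15 without hypertensive replicate 1 and -0.48 with the kept probe sets of each gene averaged. The summed signal of the 13 markers on the array was 2386 to 6106 on the hypertensive arrays against 4130 to 8315 on the normotensive arrays. On hypertensive replicate 1, where all 4 adhesion molecules peaked, that sum was the lowest of the 6 arrays. The brightest genes in it, CD163, LAPTM5 and MRC1, were also lowest there, at 270, 347 and 182. Other markers were not: LCP1 (579) and CORO1A (173) were highest on that array. S100A9, a neutrophil and activated monocyte marker below the filter, was higher without overlap, at 342, 25.6 and 76.7 against 18.0, 7.77 and 20.2. Of the 10 kept genes 1 was higher and 1 lower without overlap, against 10.4% higher and 12% lower of all kept probe sets. These were CORO1A, at 173, 107 and 102 against 70.2, 93.7 and 55.3, and PTPRC, at 36.9, 52.6 and 15.3 against 55.8, 127 and 66.0. The 2 kept probe sets of CORO1A differed in direction. So did the 2 of CD163, of which the brighter one is given above.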

How the data were processed

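The deposited table holds signal intensities on a linear scale for 24123 probe sets on 6 arrays, made by the authors with GCOS and MAS5, per the submitters' processing notes, with no version given in the sources used here. Per the labels' protocols, 70 ng of RNA per sample was amplified in a pair of in vitro transcription rounds. Scaling to a common trimmed mean hides any shift shared by most transcripts. Detection calls were not used here, and precision is limited by the number of arrays.

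After 124 control probe sets were left out, 10069 of 23999 had 1 gene symbol in the platform annotation, 198 several and 13732 none; Entrez IDs changed no symbol. Log2 signals, with no pseudocount, were kept where their mean was at or above the 40th percentile (signal 48.5), which left 14399 probe sets and 5271 genes, each gene by its brightest probe set. The pressures were compared by limma (version 3.58.1, R 4.3.3; eBayes with intensity trend, 2-sided), with Benjamini-Hochberg adjustment over all kept probe sets at 0.05, and the test was checked on simulated data. No set test was run. Members, lists and tests were chosen with earlier results of these data known. Named genes were the members, the 5 genes most correlated with each, up to 4 of smallest p per pathway list, the 4 brightest and the dim genes of each marker list, and GAPDH and ACTB. The neighbours F5 and MRPL4 were added by position, and TNF, GATA6, IL13RA1, EZR, MSN, CORO1A and PTPRC were chosen after their values were seen. Same-numbered samples were checked for pairing: their deviations correlated at 0.06, 0.07 and 0.23 for replicates 1, 2 and 3. Numbers were therefore not taken to pair samples in the main fit, though the labels do not say whether same-numbered samples shared a donor. Alternatives were a replicate block, other normalizations, filters, pseudocounts and variance models, array weights and leaving out each array. No sequences or coordinates are given.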

Additional observations from a re-analysis of the deposited data

How the results depend on the processing

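Leaving out each array in turn gave log2 differences of 1.64 to 2.32 for ICAM1, 0.36 to 0.64 for VCAM1 and 2.07 to 3.39 for SELP, and 0 to 3505 probe sets past the adjusted threshold; 3505 passed without hypertensive replicate 2, when all 3 genes passed, and 1 without normotensive replicate 2. With array weights the log2 differences were 1.48, 0.59 and 2.16, all past the threshold (adjusted p = 0.00114, 0.00582 and 0.00407), as were 5639 probe sets, 16.9% of those tested being higher; the weights were 0.195 for hypertensive replicate 2 and 6.96 for normotensive replicate 1. The cause was not tested. The other 9 settings left these genes short of the threshold, at 1.96 to 2.08 for ICAM1, 0.39 to 0.58 for VCAM1 and 2.28 to 2.82 for SELP. With the replicate number as a block, adjusted p was 0.117 for ICAM1, 0.23 for VCAM1 and 0.144 for SELP, and 0 probe sets passed. The SELE bound was 1.95 to 3.49 where it could be computed; no bound could be had without hypertensive replicate 1. The differences between members kept their sign in 11 settings each. The annotation gives no member a further probe set with 1 symbol, so that alternative was not run. Probe sets with several symbols or none were not searched for the members. Of 140 recomputed list medians 7 changed sign, in the lists of selectin ligands, other adhesion molecules, shedding proteases, endothelial cells and leukocytes. Of the control genes, ACTB had a log2 difference of 0.32 (SE 0.24) and GAPDH one of 0.11 (SE 0.15), which quantile normalization turned to -0.05.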

Other observations

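In the RefSeq gene table of the pig used here, F5, the coagulation factor V gene, comes next after SELP. F5 had a log2 difference of -0.51 (limma, adjusted p = 0.583), while SELP had one of 2.76. ICAM1 lies between MRPL4 and ICAM4 in the same table. MRPL4, a mitochondrial ribosomal protein gene, had a log2 difference of -1.51 (adjusted p = 0.472), against 2.02 for ICAM1.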
